A study of Saccharomyces cerevisiae with 14 samples.

Results

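The 10 genes described here carry sulfate into methionine and cysteine in Saccharomyces cerevisiae, or take methionine up. They are MET3 (YJR010W), MET14 (YKL001C), MET16 (YPR167C), MET5 (YJR137C), MET10 (YFR030W), MET17 (YLR303W), MET2 (YNL277W), MET6 (YER091C), CYS3 (YAL012W) and MUP1 (YGR055W). They were chosen by name from the pathway, with earlier results of these data known. They are 10 of the 6040 open reading frames (ORFs) on the slides. EPY330, an engineered strain that makes artemisinic acid, was compared on cDNA microarrays with EPY338, which carries the same genes but an inactive amorphadiene oxidase (AMO). The comparison asks which transcripts change when the oxidase works, with 4 slides at 24 h, 5 slides at 48 h and 5 slides at 72 h after induction in galactose medium (YPG). EPY330 carries the plasmid pESC-Leu2d::ADS/AMO/CPR, with active AMO. EPY338 carries pESC-Leu2d::ADS/AMO-KO/CPR, in which AMO is inactivated by a point mutation. Both strains share the background EPY300 with lys2Δ0 and ura3Δ0 repaired, a MATα BY4742 derivative with his3Δ1, leu2Δ0, a pair of copies of P GAL1-tHMGR, P GAL1-upc2-1, P GAL1-ERG20 and erg9::P MET3-ERG9. In both strains the squalene synthase gene ERG9 is therefore read from a copy of the MET3 promoter, and the cultivation methods add methionine to the galactose medium. The plasmid can be lost in this non-selective medium, so a culture may mix cells with and without it.

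Yeast takes up sulfate, activates it with ATP, and reduces it stepwise to sulfite and sulfide. Sulfide is joined to a carbon chain made from homoserine to give homocysteine, which is either methylated to methionine or passed to cysteine and glutathione. Methionine becomes S-adenosylmethionine, the donor in most methylations, and its by-product is turned back into homocysteine. The genes of the pathway are known to be read together under the activator Met4 when sulfur amino acids run short, and to be shut off when methionine is plentiful.

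Each value is log2(EPY330/EPY338) on 1 slide, so a positive value means more of the transcript in EPY330. RNA from 5 clones of each strain was pooled, and every slide of a time point carries the same pair of pools. P-values of tests at 1 time point or between time points therefore measure only the spread between slides. The test over the 3 time points uses 1 mean per time point, so its p-values measure the spread between those means. None of them covers the spread between clones or cultures. Dyes were not swapped, so an effect of the dye on a gene and a difference between the strains cannot be told apart. A fall in a transcript per cell and a fall in the share of cells that make it cannot be told apart either. All 10 genes had a value on all 14 slides, and the median over ORFs of a slide lay between -0.0231 and 0.0088. The small number of slides and of time points sets the precision. PDR5, a drug efflux pump gene used to check the direction, averaged 3.17 ± 0.53 at 24 h (SD, n = 4), 2.50 ± 0.57 at 48 h and 2.03 ± 0.41 at 72 h (n = 5 each).

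The slides also did not cluster by time point alone. The slides were clustered by their correlation, with the number of sets fixed at 3. Set 1 held 6 slides of all time points (A and C of 24 h, A and B of 48 h, D and E of 72 h). Set 2 held 5 slides of 24 and 48 h, and set 3 held A, B and C of 72 h. Slides of 1 set but different time points correlated with r between 0.604 and 0.842 (median 0.744, 18 pairs, over ORFs that share these slides). Slides of 1 time point but different sets correlated with r between 0.377 and 0.771 (median 0.621, 16 pairs). The sets were formed from these same correlations, so a higher r within a set is built in. It is no separate evidence for the sets, and their origin was not tested. Results are given with all slides and, where it matters, with set 1 alone. The likeness of the set 1 slides also makes the spread between its time points small in advance. P-values over the time points with set 1 alone are therefore no support for a difference. Set 3 holds slides of 72 h alone, so slide set and time are partly confounded.

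The pathway did not move as a block: a few genes were higher in EPY330, a few were lower, and SAM called none of the genes of sulfate activation. SAM (significance analysis of microarrays, with a false discovery rate of at most 0.2%) called 1 of the 10 genes higher at 24 h, MET10, against 11.6% of all ORFs tested, and 2 lower, CYS3 and MUP1, against 5.46%. At 48 h it called MET10 and MET2 higher, 2 of 10 against 13% of all ORFs, and CYS3 lower, 1 of 10 against 10.1%. At 72 h MET10 and MET2 were called higher, against 8.7% of all ORFs, and CYS3 and MUP1 lower, against 4.83%. SAM on measured values alone, without filling the gaps of other ORFs, called MET10 and MUP1 at 24 h, none of the 10 genes at 48 h and CYS3 at 72 h. With so few genes these shares are imprecise. They were not tested against the shares over all ORFs, and the results lie in the single genes. The 10 genes had medians of 0.02, 0.10 and -0.08 at 24, 48 and 72 h, beside -0.01, -0.02 and -0.02 over all ORFs tested.

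**Figure D1:**
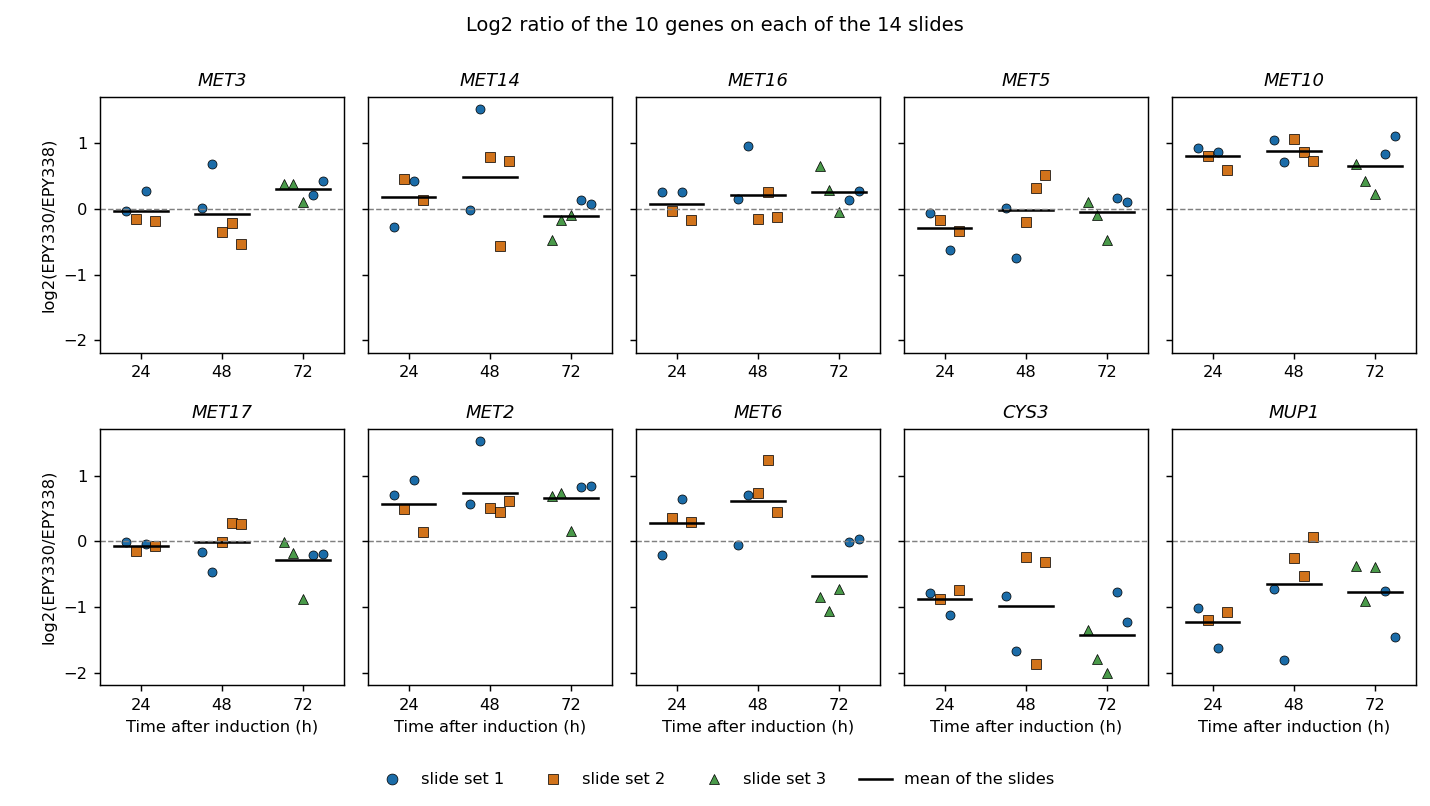
Log2(EPY330/EPY338) of each gene on every slide by time after induction in hours, with the mean of the slides as a line. Symbols mark the 3 slide sets. MET10 and MET2 lie above 0 and CYS3 below 0 on all 14 slides, and MET6 at 72 h splits between the slides of set 3 near -0.88 and those of set 1 near 0.01.

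Sulfate activation was near even between the strains. MET3 encodes ATP sulfurylase, the entry enzyme of the pathway, and MET3 is also the gene whose promoter drives ERG9 here. MET3 measured -0.04, -0.16, 0.27 and -0.19 on slides A to D of 24 h, then 0.01, 0.68, -0.35, -0.21 and -0.53 on A to E of 48 h, and 0.38, 0.38, 0.10, 0.21 and 0.43 on A to E of 72 h. The slides fell on both sides of 0 at 24 and 48 h and were all slightly above 0 at 72 h, where the mean was 0.30 ± 0.14 (SD, n = 5) without a SAM call. Over the 3 time points MET3 averaged 0.06 (95% interval -0.27 to 0.40, limma adjusted p = 0.747). At 72 h limma on the slides gave an adjusted p of 0.0304, so the value at that time point depends on the test.

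MET14 encodes APS kinase, which adds the second phosphate to activated sulfate. MET14 measured -0.28, 0.46, 0.43 and 0.13 at 24 h, -0.02, 1.52, 0.79, -0.56 and 0.73 at 48 h, and -0.48, -0.17, -0.09, 0.13 and 0.07 at 72 h. Its slides of 48 h were the most scattered of the 10 genes, with slide B high and slide D low, and the mean of 0.49 ± 0.80 was within that spread. MET16 encodes PAPS reductase, which releases sulfite. MET16 measured 0.25, -0.04, 0.25 and -0.17 at 24 h, 0.15, 0.96, -0.16, 0.25 and -0.13 at 48 h, and 0.66, 0.28, -0.05, 0.13 and 0.27 at 72 h. Its highest slide was again B of 48 h, and slides on both sides of 0 occurred at every time point. The 3 time points together gave MET14 a mean of 0.19 (95% interval -0.19 to 0.57, limma adjusted p = 0.397) and MET16 0.18 (-0.12 to 0.48, adjusted p = 0.302). With the slides of set 1 alone MET16 averaged 0.34 and passed the limma test (adjusted p = 0.0446). That setting called 2782 of all ORFs, against 1207 with all slides, so a pass there was common. Its slides were grouped for being alike, so the pass is no support for a difference. The adjusted p of MET16 over its alternatives ran from 0.0446 to 0.554.

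The genes for the subunits of sulfite reductase, the enzyme that makes sulfide, differed from each other. MET10 encodes the alpha subunit. MET10 measured 0.93, 0.81, 0.87 and 0.59 at 24 h, 1.05, 0.71, 1.06, 0.86 and 0.73 at 48 h, and 0.69, 0.42, 0.22, 0.83 and 1.11 at 72 h. All 14 slides were above 0, and the slides of 72 h were the most spread, with B and C low and E high. MET10 was called higher in EPY330 at every time point, with means of 0.80 ± 0.15 (SD, n = 4), 0.88 ± 0.17 and 0.65 ± 0.35 (n = 5 each). It averaged 0.78 over the time points, 1.71-fold higher in EPY330 (SE 0.12, 95% interval 0.47 to 1.08, limma adjusted p = 0.0246). The limma call on MET10 held without any 1 slide (adjusted p from 0.0151 to 0.0478). It also held in every other alternative tried, with the median of the slides at an adjusted p of 0.0496. Set 1 alone gave 0.92, where a pass is no separate support. The SAM call was lost at 48 h without slide C (mean 0.84), and at 72 h without A, B, D or E (means between 0.54 and 0.71).

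MET5 encodes the beta subunit and passed no test. MET5 measured -0.07, -0.17, -0.62 and -0.33 at 24 h, 0.02, -0.75, -0.20, 0.31 and 0.52 at 48 h, and 0.10, -0.10, -0.48, 0.16 and 0.10 at 72 h. It was below 0 on every slide of 24 h and on both sides of 0 later, and averaged -0.12 over the time points (95% interval -0.43 to 0.20, limma adjusted p = 0.514). On the same slide MET10 was above MET5 in 14 of 14 cases, by 0.21 to 1.49 (median 0.94). The gap was widest on C of 24 h and narrowest on E of 48 h, where MET5 was highest. This is a difference between 2 ratios on 1 slide and not between levels of the transcripts.

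**Figure D2:**
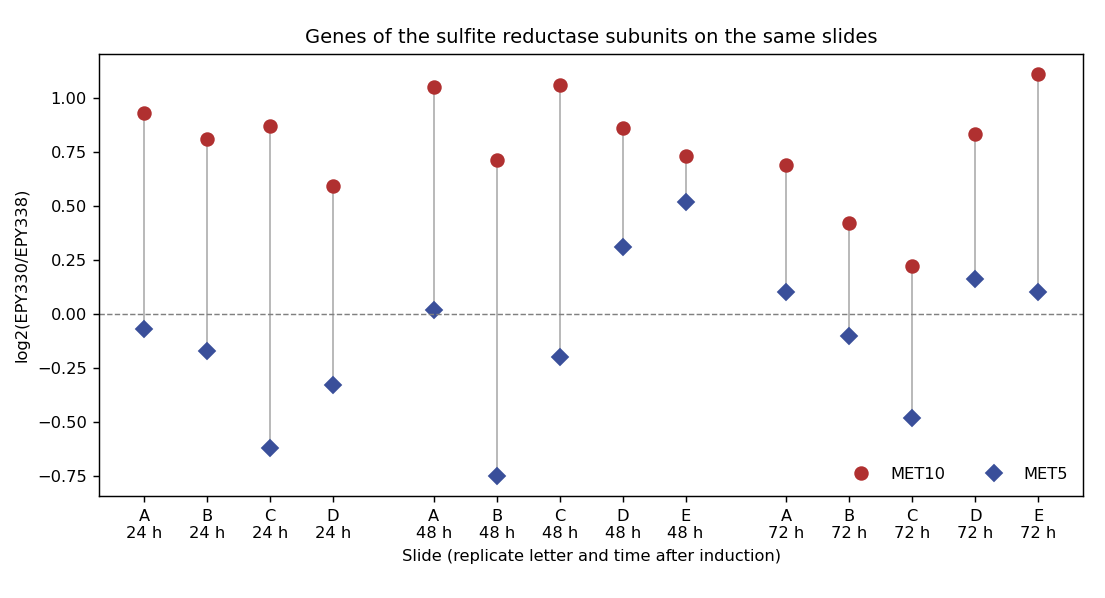
Log2(EPY330/EPY338) of MET10 (circles) and MET5 (diamonds) on each of the 14 slides, with a line joining the values of 1 slide. MET10 lies above MET5 on every slide, by 0.21 to 1.49.

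In the step that makes homocysteine, the gene for the carbon side and the gene for the joining enzyme also differed. MET2 encodes homoserine O-acetyltransferase, which prepares the carbon chain. MET2 measured 0.70, 0.50, 0.94 and 0.14 at 24 h, 0.57, 1.53, 0.51, 0.45 and 0.62 at 48 h, and 0.69, 0.74, 0.16, 0.83 and 0.85 at 72 h. All 14 slides were above 0, with B of 48 h far above the other slides of its time point and C of 72 h far below. Together MET10 and MET2 make 2 of 10 genes above 0 on all 14 slides, against 8.28% of the 4929 ORFs with a value on every slide. MET2 averaged 0.57 ± 0.34 at 24 h (SD, n = 4, not called by SAM, limma on the slides adjusted p = 0.00828), 0.74 ± 0.45 at 48 h and 0.66 ± 0.28 at 72 h (n = 5 each, called higher).

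Over the time points MET2 averaged 0.65, 1.57-fold higher in EPY330 (SE 0.12, 95% interval 0.36 to 0.95, limma adjusted p = 0.0274), and 0.90 with the slides of set 1 alone. The call was lost without E of 72 h (0.64, adjusted p = 0.0517) and with the median of the slides (0.64). Ratios were also taken relative to the median of ORFs listed near each gene by ORF name (called the ORF order trend). With it removed MET2 averaged 0.17 (adjusted p = 0.355), so the ORFs listed around MET2 were above 0 too. The part of that trend in the MET2 ratio was not tested. The SAM call at 48 h was lost without A, C, D or E (means between 0.76 and 0.81) and with the trend removed (0.22), and that at 72 h without A, B, D or E (means between 0.61 and 0.65) and with the trend removed (0.31).

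MET17 encodes O-acetylhomoserine sulfhydrylase, which joins sulfide to the chain that MET2 prepares. MET17 measured -0.01, -0.14, -0.04 and -0.07 at 24 h, -0.16, -0.46, -0.01, 0.28 and 0.27 at 48 h, and -0.01, -0.17, -0.87, -0.20 and -0.19 at 72 h. Its slides of 24 h were the tightest of the 10 genes, and C of 72 h stood well below the rest. MET17 averaged -0.12 over the time points (95% interval -0.43 to 0.19, limma adjusted p = 0.499). MET2 was above MET17 on 14 of 14 slides, by 0.17 to 1.99 (median 0.72).

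CYS3 encodes cystathionine gamma-lyase, which makes cysteine from the homocysteine branch, and it was the gene furthest below 0 over the time points. CYS3 measured -0.79, -0.88, -1.12 and -0.74 at 24 h, -0.83, -1.67, -0.23, -1.87 and -0.32 at 48 h, and -1.35, -1.79, -2.01, -0.77 and -1.22 at 72 h. All 14 slides were below 0, as were 9.19% of the 4929 ORFs, and at 48 h B and D were far below C and E. CYS3 was called lower in EPY330 at every time point, with means of -0.88 ± 0.17 (SD, n = 4), -0.98 ± 0.76 and -1.43 ± 0.49 (n = 5 each). Over the time points it averaged -1.10, 2.14-fold lower in EPY330 (SE 0.15, 95% interval -1.47 to -0.72, limma adjusted p = 0.0238), and -1.07 with set 1 alone. The limma call held without any 1 slide (highest adjusted p 0.0436) and was lost with the ORF order trend removed (-0.77, adjusted p = 0.0632). The SAM call at 24 h was lost without B (mean -0.88) or D (-0.93) and with SAM on measured values alone, without filled gaps, and that at 48 h without A, B, C or D (means between -1.17 and -0.76) and with the trend removed (-0.38). CYS3 was below MET2 on 14 of 14 slides, with differences between -3.20 and -0.74.

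MUP1 encodes a high-affinity methionine permease, which takes methionine from the medium into the cell. MUP1 measured -1.01, -1.19, -1.62 and -1.07 at 24 h, -0.73, -1.81, -0.25, -0.52 and 0.07 at 48 h, and -0.37, -0.91, -0.39, -0.76 and -1.45 at 72 h. It was below 0 on 13 slides and near 0 on E of 48 h, and no slide of 24 h was above -1.01. MUP1 was called lower in EPY330 at 24 h (-1.22 ± 0.28, SD, n = 4) and 72 h (-0.78 ± 0.44, n = 5) and was not called at 48 h (-0.65 ± 0.72, n = 5). Within set 1 the values at 48 h and 72 h, -1.27 and -1.11, were near the -1.32 of 24 h. Within set 2, whose slides come from 24 and 48 h, MUP1 averaged -1.13 at 24 h and -0.23 at 48 h.

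The mean of MUP1 over the time points was -0.88, 1.84-fold lower in EPY330 (SE 0.16, 95% interval -1.26 to -0.50, limma adjusted p = 0.0267), and -1.23 with set 1 alone. The call was lost without E of 72 h (-0.83, adjusted p = 0.0519), with the median of the slides (-0.80) and with the ORF order trend removed (-0.59, adjusted p = 0.054). The SAM call at 24 h was lost without D (mean -1.27), and that at 72 h without any 1 of its 5 slides (means between -0.88 and -0.61) and with the trend removed (-0.44).

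**Figure D3:**
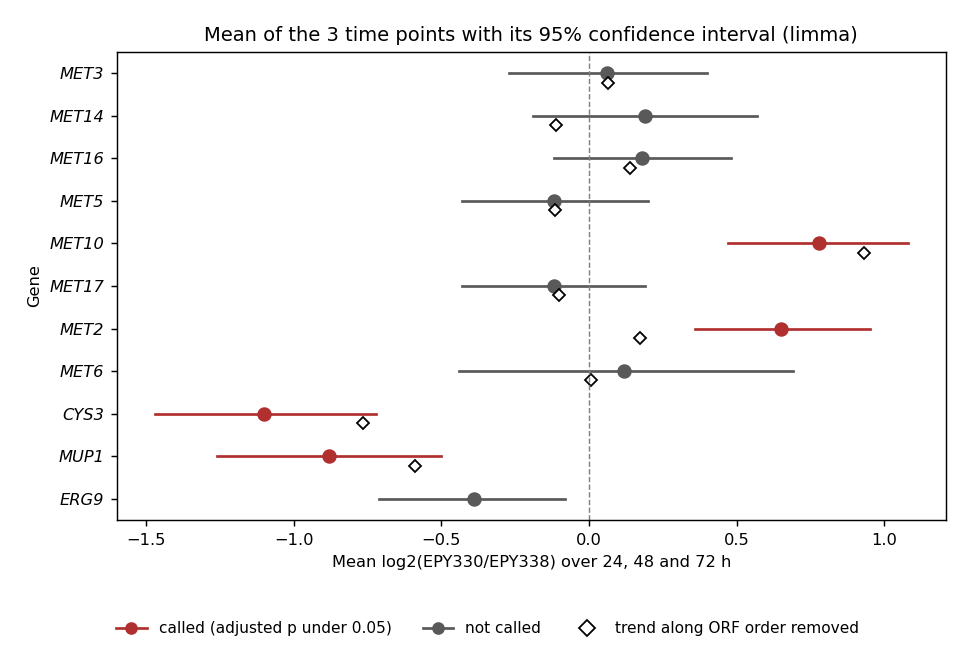
Mean log2(EPY330/EPY338) over 24, 48 and 72 h (horizontal axis) of the 10 genes and ERG9, with the 95% confidence interval from limma and, as open diamonds, the mean after removal of the ORF order trend, not computed for ERG9. MET10 and MET2 were called higher, at 0.78 and 0.65, and CYS3 and MUP1 lower, at -1.10 and -0.88. With the trend removed MET10 alone stayed called, at 0.93, and MET2 lay at 0.17.

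In the test over the 3 time points 2 of the 10 genes were higher, against 11.5% of all ORFs tested, and 2 were lower, against 9.85%. The 6 other genes had means between -0.12 and 0.19, and the interval of each included 0. ERG9, read from the MET3 promoter in both strains, measured -0.46, -0.06, -0.81 and -0.02 at 24 h, -0.59, -0.71, -0.10, -0.24 and 0.23 at 48 h, and -0.72, -0.57, -1.05, -0.42 and -0.04 at 72 h. ERG9 averaged -0.39 (95% interval -0.71 to -0.08, limma adjusted p = 0.0755) and was not called by SAM at any time point, whereas limma on the slides gave an adjusted p of 0.0114 at 72 h. On the same slide ERG9 was below MET3 in 10 of 14 cases (median difference -0.53, range -1.39 to 0.76). It was above MET3 on the 4 other slides, all of set 2. ERG9 averaged -0.63 at 24 h and -0.65 at 48 h in set 1, beside -0.04 and -0.03 in set 2. At 72 h it averaged -0.23 in set 1 and -0.78 in set 3. MET3 at 48 h averaged 0.34 in set 1 and -0.36 in set 2.

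MET6 encodes the methionine synthase that needs no cobalamin, the last step to methionine, and it was the 1 gene of the 10 with a change between time points that passed the test. MET6 measured -0.20, 0.36, 0.65 and 0.30 at 24 h, -0.05, 0.71, 0.74, 1.24 and 0.45 at 48 h, and -0.85, -1.06, -0.73, -0.01 and 0.04 at 72 h. Most slides of 24 and 48 h were above 0, A, B and C of 72 h were well below, and D and E of 72 h lay near 0, within the range of the earlier slides. The means were 0.28 ± 0.35 (SD, n = 4), 0.62 ± 0.47 and -0.52 ± 0.50 (n = 5 each), and SAM called none of them. Limma on the slides gave adjusted p-values of 0.154, 0.0283 and 0.0345, so the values at 48 and 72 h depend on the test.

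From 48 h to 72 h the MET6 ratio changed by -1.14 (SE 0.26, 95% interval -1.68 to -0.60, limma adjusted p = 0.00547). This was 1 of the 10 genes, against 30.2% of all ORFs tested. The change from 24 h to 72 h was -0.80 (SE 0.27, adjusted p = 0.059), and 0 of the 10 genes passed there, against 14.3% of all ORFs, with MET6 alone at an unadjusted limma p under 0.05. From 24 h to 48 h 0 of 10 genes passed, against 0.991% of all ORFs, and 0 of the 10 had an unadjusted limma p under 0.05. An effect of the dye that is the same at each time point cancels in these differences.

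The change of MET6 differed with the slides used. With the slides of set 1 alone, which hold all time points, MET6 averaged 0.23, 0.33 and 0.01, and the change from 48 h to 72 h was -0.31 (SE 0.37, limma adjusted p = 0.945). With the slide set as a term of the model it was -0.42 (SE 0.29, adjusted p = 0.584). Limma then called 0 ORFs (321 at an unadjusted p under 0.05) and 51 ORFs in place of 1709. Both fits are also less precise, with an SE for MET6 of 0.37 and 0.29 against 0.26 with all slides. The fall in calls alone therefore cannot tell lost precision from a part of the slide set in these changes, and this was not tested. MET3 and MET14 did not pass for this change (0.38 and -0.60, adjusted p = 0.153 and 0.127), although MET3 passed without B of 48 h (0.57, adjusted p = 0.00842) and MET14 without D of 48 h (-0.87, adjusted p = 0.0291). CYS3 did not pass either (-0.44, limma adjusted p = 0.278). Its lowest adjusted p was 0.0268 over all alternatives and 0.102 with slides left out in turn.

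Genes next to MET6 in the methyl cycle, named after their values were seen except SAM1, had the same order of time points. SAM1 and SAM2 encode S-adenosylmethionine synthetases, and SAH1 encodes the hydrolase that returns S-adenosylhomocysteine to homocysteine. SAM1 averaged 0.92 ± 0.27 at 24 h (SD, n = 4), 1.12 ± 0.33 at 48 h and 0.02 ± 0.26 at 72 h (n = 5 each), and was called higher at 24 and 48 h. SAM2 averaged 0.59, 0.67 and -0.75 and SAH1 0.82, 0.95 and -0.06, and SAM called SAH1 higher at 24 and 48 h and SAM2 lower at 72 h. SAM1 and SAM2 are close paralogues, and their spots may bind each other's cDNA, so their values are not separate evidence.

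The change from 48 h to 72 h was -1.11 for SAM1 (SE 0.19, limma adjusted p = 0.00166), -1.43 for SAM2 (SE 0.23, adjusted p = 0.00105) and -1.01 for SAH1 (SE 0.18, adjusted p = 0.00184). The slides of 72 h lay below every slide of 48 h in SAM1, SAM2 and SAH1. Within set 1 the same differences were -0.91, -0.49 and -0.59, with adjusted p-values of 0.782, 0.919 and 0.901 on 2 slides a time point. The SAM1 difference thus stayed near its size with all slides, without passing the test.

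**Figure D4:**
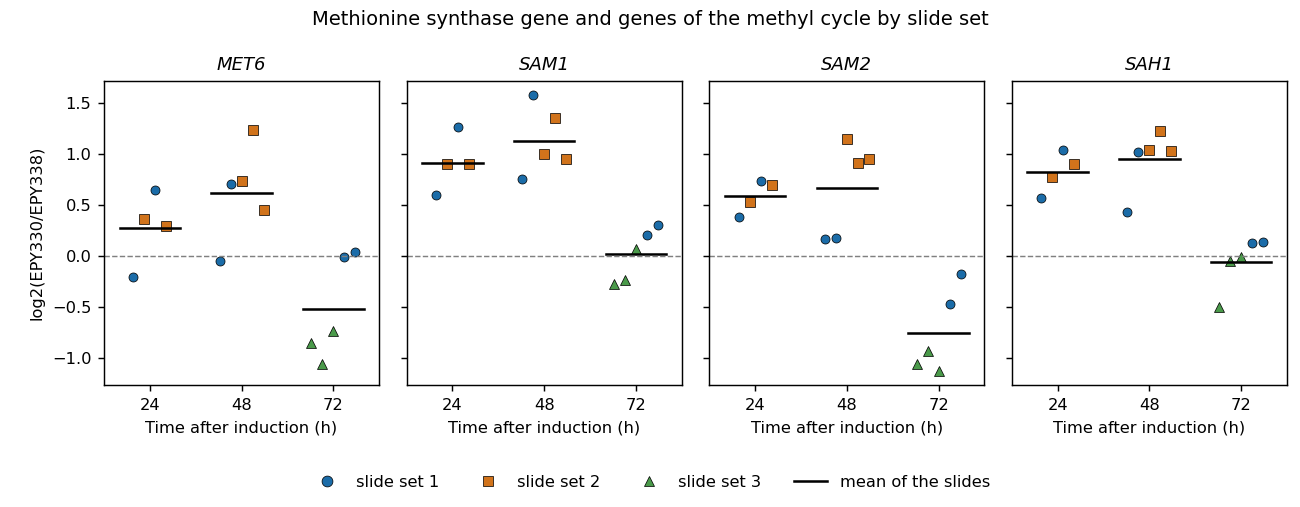
Log2(EPY330/EPY338) of MET6, SAM1, SAM2 and SAH1 on each slide by time after induction in hours, with symbols for the slide sets and a line at the mean. In MET6 the slides of set 3 at 72 h average -0.88 and those of set 1 average 0.01, whereas in SAM1 all slides of 72 h, between -0.27 and 0.31, lie below the lowest slide of 48 h at 0.76.

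A list of 33 other genes of sulfur metabolism gave the wider pathway, from sulfate permeases to glutathione synthesis, and HOM2 of that list had no value. SAM called 4 of 31 tested genes higher and 1 lower at 24 h, against 11.6% and 5.46% of all ORFs. It called 4 of 32 higher and 1 lower at 48 h, against 13% and 10.1%, and 1 of 31 higher and 4 lower at 72 h, against 8.7% and 4.83%. The median of the list was -0.07, -0.09 and -0.10 at these time points. In the test over the time points 1 of 30 was higher and 2 were lower, against 11.5% and 9.85% of all ORFs. From 48 h to 72 h the ratio increased for 1 of 30 and decreased for 7, against 30.2% of all ORFs in either direction. The 4 genes called lower at 72 h, named after their values were seen, were MET13 (methylenetetrahydrofolate reductase, -0.62 ± 0.16, n = 5), SAM2 (-0.75 ± 0.42, n = 5), CYS4 (cystathionine beta-synthase, -0.78 ± 0.13, n = 4) and SAM3 (-0.74 ± 0.27, n = 5). MET13 makes the methyl donor that MET6 uses, and CYS4 acts just before CYS3. Whether the list differs from all ORFs was not tested.

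HOM6, which encodes homoserine dehydrogenase and so feeds MET2, averaged 1.17 ± 0.36 at 24 h (SD, n = 4), 0.94 ± 0.48 at 48 h and 0.04 ± 0.50 at 72 h (n = 5 each), and was called higher at 24 and 48 h. Its slides of set 1 averaged 0.88, 0.46 and 0.52 at these time points and those of set 3 averaged -0.29 at 72 h. The change from 48 h to 72 h was -0.91 with all slides (SE 0.26, limma adjusted p = 0.0165). It was 0.07 with set 1 alone (SE 0.30, adjusted p = 0.981) and 0.00 with the slide set as a term (SE 0.22, adjusted p = 0.995). As for MET6, a slide set effect and a change at 72 h cannot be told apart by these fits. GSH2, the glutathione synthetase gene, averaged 0.67 over the time points (limma adjusted p = 0.0281) and was between 0.32 and 0.99 on every slide. SAM3, the S-adenosylmethionine permease gene, averaged -0.74 (adjusted p = 0.0461), with a mean of -1.20 ± 0.45 at 24 h, where MUP1 was also lowest. STR2, which encodes cystathionine gamma-synthase of the route from cysteine back to homocysteine, averaged -0.49 (adjusted p = 0.0396). OPT1, a glutathione and peptide transporter gene, averaged -0.71 ± 0.32 at 48 h, where it was called lower, and 0.03 ± 0.14 at 72 h, and that change of 0.74 was the increase counted above (adjusted p = 0.00633). With the slide set as a term it was 0.33 (adjusted p = 0.413), and with set 1 alone 0.29 (adjusted p = 0.945). Slide set and time are partly confounded here too.

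Of the 6 regulators on the list SAM called MET32 alone. MET4, the gene of the activator, lay between -0.35 and 0.22 on all 14 slides and averaged -0.07 (95% interval -0.36 to 0.22, limma adjusted p = 0.659). MET32, which encodes a DNA-binding partner of Met4, averaged 0.59 ± 0.20 at 24 h (SD, n = 4), 0.83 ± 0.31 at 48 h and -0.29 ± 0.43 at 72 h (n = 5 each). MET32 was called higher at 48 h, and its ratio changed by -1.12 from 48 h to 72 h (SE 0.21, adjusted p = 0.00215) and by -0.87 from 24 h (SE 0.22, adjusted p = 0.0192). As in MET6, its slides of set 3 were low at 72 h, with a mean of -0.59 beside 0.16 in set 1. With the slide set as a term, which is partly confounded with time, the change from 48 h was -0.41 (adjusted p = 0.326).

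MET28, a cofactor gene of the Met4 complex, averaged -0.42 over the time points (adjusted p = 0.0967), MET30, the gene of the ubiquitin ligase subunit that restrains Met4, -0.48 (adjusted p = 0.056), and MET31, a paralogue of MET32, -0.29 (adjusted p = 0.249). These 3 were not called by SAM, nor over the time points with all slides. MET28 and MET30 averaged -0.39 and -0.56 with set 1 alone, with limma adjusted p-values of 0.0398 and 0.00806. With set 1 alone that test called 2782 of all ORFs, against 1207 with all slides. The slides of set 1 were grouped for being alike, so these p-values are no support for a difference. CBF1, the gene of another DNA-binding partner, had 3 slides at 24 h and 3 at 48 h, with means of -0.05 and -0.32, and no value at 72 h.

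As a comparison outside sulfur metabolism, 28 of 29 genes for the synthesis of other amino acids were tested. SAM called 1 higher and 1 lower at 24 h (11.6% and 5.46% of all ORFs), 2 higher and 3 lower at 48 h (13% and 10.1%), and 0 higher and 5 lower at 72 h (8.7% and 4.83%). The medians of the list were -0.15, -0.05 and -0.39. Among the 10 genes 4 were above 0 at 72 h, and in this list 1 of 28 was. Whether the lists differ was not tested.

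The slide values of the 10 genes did not run in parallel. The highest correlation between a pair was between MET3 and MET16 (r = 0.81, Spearman's rho = 0.83), followed by MET16 and MET2 (r = 0.79, rho = 0.74), and the lowest was between MET3 and MUP1 (r = -0.64, rho = -0.55), each over 14 slides that share 3 pairs of RNA pools. The median of the 10 genes ran from -0.24 on C of 72 h to 0.69 on B of 48 h. Among 4919 other ORFs with a value on all slides, the 5 whose slide values were most like that median were LOG1 (r = 0.859), ELO3 (0.846), RTT102 (0.841), AKR2 (0.836) and ARG1 (0.832). ARG1, the argininosuccinate synthetase gene, was called higher at 48 h with a mean of 0.83, and the 4 others were not called at any time point.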

How the data were processed

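The authors pooled RNA of 5 clones per strain and hybridised EPY330 (Alexa555) and EPY338 (Alexa647) to double-spotted cDNA slides, extracted spots with GenePix Pro, dropped aberrant or dim ones, and applied lowess in BRB-ArrayTools. The deposited values are log2 ratios of EPY338 over EPY330, 1 per ORF and slide, and the sign was turned here. Signal over background was not assessed, since no intensities were used. Symbols came from RefSeq locus tags (5546 of 6040 ORFs). One-class SAM over every sign flip used ORFs with at least 3 slides, gaps filled from the 10 nearest ORFs, which touched none of the 10 genes. Limma 3.58.1 (R 4.3.3, two-sided, Benjamini-Hochberg over 5652 ORFs, adjusted p under 0.05) tested 1 mean per time point, and slides grouped by time for differences. Other steps used Python 3.11.15. Procedures were tested on simulated slides with independent noise, without slide sets or an ORF order trend, so that check does not cover those features.

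The 10 genes and the lists were chosen with earlier results of these data known. Named by rule from the wider list were the 3 highest and 3 lowest means among genes called in at least 1 comparison, and every regulator. The ORF order trend was the median of ORFs 1 to 6, 44 to 50 and 91 to 97 places away. The slide sets (average linkage on 1 minus Pearson's r, with the number of sets fixed at 3) were added after the data were seen. Other alternatives were SAM without filled gaps, a 1% FDR, limma on slides, median-centred slides, ORFs with every slide, slides left out in turn, and the replicate letter as a block.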

Additional observations from a re-analysis of the deposited data

Results flagged for a closer look

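Of 30 sets of slide values tested (10 genes at 3 time points), 3 held a slide far from the others, and chance alone flags about 1 in 20. MET17 measured -0.873 on C of 72 h, where the other 4 slides lay between -0.20 and -0.01. MET2 measured 1.5301 on B of 48 h, where the other 4 lay between 0.45 and 0.62, and 0.1609 on C of 72 h, where the other 4 lay between 0.69 and 0.85. On C of 72 h MET3, MET16, MET5, MET10 and CYS3 were also at their lowest of that time point.

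The MET6 ratio differed between time points, by -1.1404 from 48 h to 72 h (limma adjusted p = 0.00547). It averaged 0.01 on the 2 slides of set 1 at 72 h and -0.88 on the 3 slides of set 3.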

How the results depend on the processing

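Of 70 results on single genes, 15 passed the threshold and 55 did not, and none that passed changed direction under any alternative tried. A call was lost or gained in 21, and 28 uncalled values changed sign while staying uncalled. The number of the 10 genes called at 24 h was 3, and became 2 with SAM without filled gaps, which lost CYS3. The number called at 48 h was 3, and became 0 with SAM without filled gaps and 1 with the ORF order trend removed. At 72 h it was 4, and became 1 and 2. Over the time points it was 4, and became 2 with the median of the slides and 1 with the trend removed. For 72 h minus 48 h it was 1, and became 2 with the trend removed, 0 with the slide set as a term and 0 with set 1 alone. For 72 h minus 24 h it was 0, and became 1, MET6, on ORFs with every slide, on the slides of the 2 time points alone and with the trend removed. MET6 at 72 h averaged 0.01 with set 1 alone.

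Leaving out 1 slide gave 1 to 3 called genes at 24 h, where 3 were called with all slides, 0 to 2 at 48 h, 1 to 3 at 72 h, 2 to 4 over the time points, 1 to 2 for 72 h minus 48 h and 0 to 1 for 72 h minus 24 h. Over all ORFs it gave 441 to 960 calls at 24 h (999 with all slides), 438 to 1818 at 48 h (1324), 356 to 908 at 72 h (804), 255 to 1546 over the time points (1207), 36 to 97 for 48 h minus 24 h (56), 1079 to 2380 for 72 h minus 48 h (1709) and 174 to 1280 for 72 h minus 24 h (810).

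Other settings moved the calls over all ORFs too. SAM without filled gaps called 549, 132 and 383 ORFs at 24, 48 and 72 h. A 1% FDR called 1507 at 24 h and 1594 at 72 h, limma on slides called 2744, 2120 and 2562, the trend removed gave 1676 at 24 h, and centred slides gave 1225 at 72 h. Over the time points the median of the slides called 258, the trend removed 796 and set 1 alone 2782. For 48 h minus 24 h the 2 time points alone gave 32, the slide set as a term 93 and set 1 alone 1. For 72 h minus 48 h the slide set as a term gave 51 and set 1 alone 0. For 72 h minus 24 h the 2 time points alone gave 1499, the slide set as a term 30 and set 1 alone 7. The causes were not tested.

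With the replicate letter as a replicate block MET6 passed for 72 h minus 24 h (-0.85), so 1 of the 10 genes was called there in place of 0. The letters do not pair the slides: deviations from the mean of the time point correlated between -0.559 and 0.67 for 13 pairs of the same letter and between -0.552 and 0.689 for 52 pairs of different letters.

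The slides measure RNA pools, so no test here covers the spread between clones, and a spot's signal over background was not assessed.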
